A study of Mus musculus with 14 samples.

Results

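The 45 genes described here act late in the cell cycle, in G2 and mitosis. They were taken from a list of symbols, and a row of the deposited tables was counted as a gene of the list when its label was the symbol, or the symbol with a copy number attached. All 45 symbols were found among the 48714 labels that the 14 tables share; Kif11 had 2 labels, and the copy with the higher mean was used. By role, the genes comprise 7 cyclins, Cdk1 and regulators of Cdk1, 5 mitotic kinases and spindle checkpoint genes, 3 subunits of the chromosomal passenger complex, 3 partners or substrates of mitotic ubiquitin ligases, 7 genes of chromosome structure, 5 of the centromere and kinetochore, 5 kinesins, 7 proteins of spindle microtubules and 3 genes of cytokinesis.

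The study compared hematopoietic stem cells (HSCs), the cells that maintain blood formation, from the bone marrow of C57BL/6 mice, sorted by cytoplasmic calcium into a calcium-high and a calcium-low population, with 7 replicates of each. No further genotype, treatment, age or sorting gate is given in the labels. Each library was made from 100 sorted cells by random-primed reverse transcription, and the labels do not say whether the replicates came from separate animals, so p-values measure only the spread between these samples. Values are RPKM, read numbers scaled to gene length and library size. Replicates 1 to 3 of both populations had 3575282 to 7387840 reads in listed genes, and replicates 4 to 7 had 8280756 to 10296347. Calcium-low replicate 3 stood apart from the other 13 libraries in the genes described here. As these are bulk libraries, a larger share of cells in G2 and mitosis and more of these transcripts per cell cannot be told apart.

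The background of these genes is well known. Cyclin A and cyclin B switch on the kinase Cdk1, which drives the cell into mitosis; Plk1 and the Aurora kinases then build the spindle, condensins compact the chromosomes, kinetochores attach them to microtubules, the spindle checkpoint holds the anaphase-promoting complex back until all are attached, and the cell is finally cleaved. Most of these genes are transcribed together: in resting cells the MuvB complex, as part of DREAM, holds them down by binding a promoter element called the CHR (cell cycle genes homology region), and in cycling cells MuvB works with B-Myb and FoxM1 to switch them on, with NF-Y bound at CCAAT boxes beside the CHR. Adult HSCs are known for resting in G0 most of the time, so that these transcripts are normally scarce in them.

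The promoters of 38 of the 45 genes could be matched to RefSeq windows (build GRCm38.p6) of 300 bases, from 250 before to 50 after the annotated start. The CHR letters TTTGAA were searched on both strands, where the other strand reads TTCAAA. They were found in 29 of the 38 windows (76.3%) and in 17.9% of all 32851 windows. The variant TTCGAA, which reads the same on both strands, was found in 4 of the 38 (10.5%) and in 1.56% of all. A CCAAT box (ATTGG on the other strand) was found in 31 of the 38 (81.6%) and in 37.4% of all, and TTTGAA together with CCAAT in 26 of the 38 (68.4%) and in 6.95% of all. A match to these letters is a description of the sequence and not a mapped binding site. The windows of 7 genes are printed from 220 bases before to 30 after the start, to show the arrangement in 4 genes with high ratios in calcium-low replicate 3 (Ube2c, Ccnb2, Mki67, Ccnb1), in the kinase gene Cdk1, in the anaphase activator gene Cdc20 and in Hmmr. They lie at chr9:70421525-70421774 (Ccnb2, minus strand), chr10:69352883-69353132 (Cdk1, minus strand), chr2:164769709-164769958 (Ube2c, plus strand), chr4:118437314-118437563 (Cdc20, minus strand), chr7:135716350-135716599 (Mki67, minus strand), chr11:40733408-40733657 (Hmmr, minus strand) and chr13:100786457-100786706 (Ccnb1, minus strand). Each is written 5′ to 3′ on the strand of its gene, and capitals mark TTTGAA and CCAAT on either strand; the capitals CCAATTGG in Ube2c are a CCAAT box on each strand that overlap.
Ccnb2: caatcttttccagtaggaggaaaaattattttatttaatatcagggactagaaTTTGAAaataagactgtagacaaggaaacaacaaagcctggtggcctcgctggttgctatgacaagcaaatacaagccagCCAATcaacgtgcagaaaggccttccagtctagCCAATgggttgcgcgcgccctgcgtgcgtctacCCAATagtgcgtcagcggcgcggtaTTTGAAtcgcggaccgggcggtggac
Cdk1: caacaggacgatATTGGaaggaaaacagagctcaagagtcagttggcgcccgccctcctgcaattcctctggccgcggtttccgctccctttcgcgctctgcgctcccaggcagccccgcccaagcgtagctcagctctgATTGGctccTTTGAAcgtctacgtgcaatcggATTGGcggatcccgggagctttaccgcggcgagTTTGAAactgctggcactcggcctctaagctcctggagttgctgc
Ube2c: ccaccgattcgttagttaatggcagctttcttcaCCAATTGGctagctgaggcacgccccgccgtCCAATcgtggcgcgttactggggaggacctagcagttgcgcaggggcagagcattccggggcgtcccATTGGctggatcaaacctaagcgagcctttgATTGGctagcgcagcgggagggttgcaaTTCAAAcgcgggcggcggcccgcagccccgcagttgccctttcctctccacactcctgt
Cdc20: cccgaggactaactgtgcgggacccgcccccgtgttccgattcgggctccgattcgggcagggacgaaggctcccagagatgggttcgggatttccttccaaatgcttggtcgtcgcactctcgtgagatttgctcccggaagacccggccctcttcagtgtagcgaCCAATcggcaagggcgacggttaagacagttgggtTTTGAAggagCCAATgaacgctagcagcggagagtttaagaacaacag
Mki67: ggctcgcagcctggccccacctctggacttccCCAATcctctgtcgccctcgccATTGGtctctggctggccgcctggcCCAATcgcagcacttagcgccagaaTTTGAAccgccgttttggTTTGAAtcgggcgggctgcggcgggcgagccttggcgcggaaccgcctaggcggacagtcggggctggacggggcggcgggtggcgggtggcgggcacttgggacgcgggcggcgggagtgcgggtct
Hmmr: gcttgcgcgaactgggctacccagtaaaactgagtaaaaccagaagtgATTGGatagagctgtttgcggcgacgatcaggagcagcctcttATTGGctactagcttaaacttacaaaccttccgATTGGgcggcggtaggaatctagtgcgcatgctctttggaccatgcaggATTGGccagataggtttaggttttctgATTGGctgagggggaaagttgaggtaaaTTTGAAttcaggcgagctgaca
Ccnb1: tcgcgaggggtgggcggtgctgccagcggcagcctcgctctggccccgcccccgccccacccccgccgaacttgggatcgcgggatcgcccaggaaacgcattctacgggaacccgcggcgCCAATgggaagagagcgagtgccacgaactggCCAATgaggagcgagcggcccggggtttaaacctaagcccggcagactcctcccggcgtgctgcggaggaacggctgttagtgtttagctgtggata
Ccnb2, Cdk1 and Mki67 each held TTTGAA at 2 places in the printed stretch. Ccnb1 held CCAAT at 2 places and no TTTGAA.

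In the 13 libraries other than calcium-low replicate 3, the 45 genes were at low levels in both populations. Their mean on the log2(RPKM + 1) scale lay between 0.75 and 1.61, between 15 and 33 of the 45 genes exceeded 1 RPKM, and they took 0.0566% to 0.132% of the reads in listed genes (2023 to 12640 reads per library). The level of Ncapd2, a condensin subunit, was the highest of the 45 with a mean of 7.88 RPKM over these 13 libraries, followed by Cenpa at 5.07 and Cks2 at 4.79 RPKM. At the other end, Ccnb2 was listed at 0 in calcium-high replicates 1 and 2, Cdc25c in calcium-high replicate 2 and calcium-low replicate 4, and Kif2c in calcium-low replicate 2. The limits that a count of 0 allows there, taken as 3 reads, were 0.116 and 0.136 RPKM for Ccnb2, 0.0823 and 0.0346 RPKM for Cdc25c, and 0.0592 RPKM for Kif2c; such limits cover counting error only. A value of 0 in these libraries therefore does not show that the transcript was absent from the 100 cells.

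In calcium-low replicate 3, all 45 genes exceeded 1 RPKM and their mean on the log2(RPKM + 1) scale was 4.10. They took 78482 reads, 1.06% of the reads in listed genes (Wilson 95% interval 1.05% to 1.07%). Each of the 45 genes had its highest value of the 14 libraries there, against 19.5% of all genes above 0. The value in this library was 1.92 times the highest of the other 13 for Smc4 and 33.6 times for Hmmr, with a median over the 45 genes of 6.56.

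**Figure D1:**
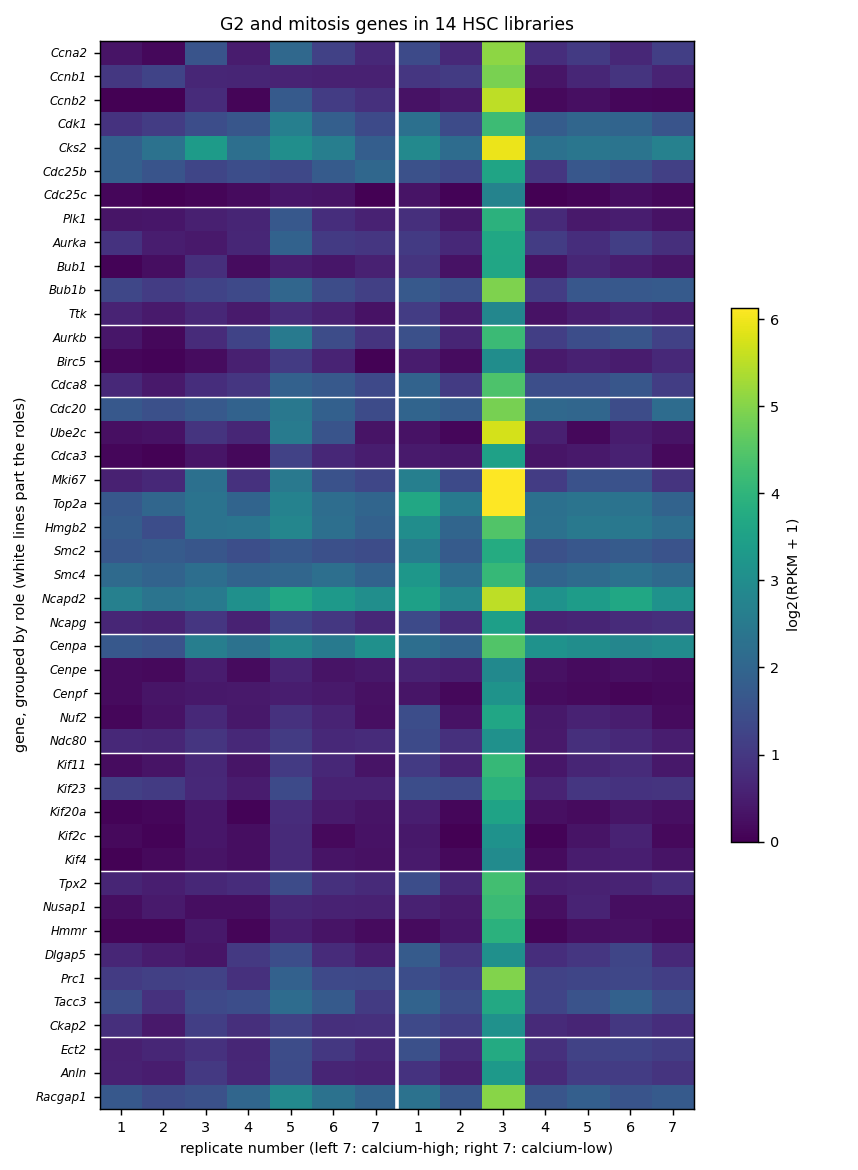
Levels of the 45 G2 and mitosis genes (rows, grouped by role) in the 14 libraries (columns, calcium-high left and calcium-low right, by replicate number), coloured by log2(RPKM + 1). The column of calcium-low replicate 3 is bright in all 45 rows, and calcium-high replicate 5 and calcium-low replicate 1 are the brightest of the other 13 columns in most rows.

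Among the cyclins, Cdk1 and its regulators, Ccna2 (cyclin A2, chr3:36564865-36572150) ranged from 0.104 to 3.18 RPKM in calcium-high with a median of 0.624, and from 0.615 to 1.6 with a median of 0.902 in 6 of the calcium-low libraries; calcium-low replicate 3 had 33.3 RPKM. Ccnb1 (cyclin B1, chr13:100778650-100786570) ranged from 0.465 to 1.36 RPKM in calcium-high (median 0.562) and from 0.28 to 1.08 in those 6 (median 0.728), with 28.9 RPKM in replicate 3. Ccnb2 (cyclin B2, chr9:70407692-70421547) ranged from 0 to 2.33 RPKM in calcium-high (median 0.679) and from 0.0524 to 0.334 in the 6 (median 0.151), with 45.3 RPKM in replicate 3. Leaving that library aside, the ranges of the populations overlapped for all 3 cyclins, and the upper end of Ccnb2 was formed by calcium-high replicates 5, 6 and 7. Cdk1 itself (chr10:69335146-69352938) ranged from 0.878 to 5.27 RPKM in calcium-high (median 1.74) and from 1.62 to 3.81 in the 6 calcium-low libraries (median 2.71), with 17.3 RPKM in replicate 3. It was lower in calcium-high in 6 of the 7 numbered pairs, all but pair 5. Pair 3, which holds calcium-low replicate 3, was lower for all 45 genes. Cks2, which binds Cdk1, ranged from 2.58 to 9.29 RPKM in calcium-high (median 3.94) and from 3.53 to 6.46 in the 6 (median 4.22), with 60.7 RPKM in replicate 3. The phosphatase genes Cdc25b and Cdc25c, whose products activate Cdk1, had 11.1 and 5.74 RPKM in replicate 3, and at most 3.12 and 0.301 RPKM elsewhere.

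Among the mitotic kinases and the spindle checkpoint, Plk1, a kinase of mitotic entry and spindle assembly, ranged from 0.27 to 2.23 RPKM in calcium-high (median 0.512) and from 0.231 to 0.778 in the 6 calcium-low libraries (median 0.37), with 14.5 RPKM in replicate 3. Bub1b, which encodes the checkpoint protein BubR1, ranged from 1.123 to 3.09 RPKM in calcium-high (median 1.48) and from 1.13 to 2.32 in the 6 (median 2.21), with 29.96 RPKM in replicate 3. For both genes the highest of the 13 libraries was calcium-high replicate 5. Aurka, Bub1 and Ttk had 11.7, 11.5 and 6.12 RPKM in replicate 3. In the chromosomal passenger complex, which corrects faulty attachments of chromosomes to microtubules, its kinase gene Aurkb ranged from 0.0966 to 4.66 RPKM in calcium-high (median 0.886) and from 0.563 to 2.09 in the 6 (median 1.5), with 17.1 RPKM in replicate 3. The calcium-high libraries thus spread more widely than the 6 calcium-low ones, with replicates 1 and 2 at the bottom and replicate 5 at the top. Its partners Cdca8 (borealin) and Birc5 (survivin) had 20.5 and 7.1 RPKM in replicate 3.

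Among the ubiquitin ligase genes, Cdc20, the activator of the anaphase-promoting complex, ranged from 1.64 to 4.51 RPKM in calcium-high (median 2.25) and from 1.71 to 3.47 in the 6 calcium-low libraries (median 2.99), with 28.3 RPKM in replicate 3. Ube2c (chr2:164769898-164778822), the ubiquitin-conjugating enzyme of that complex, ranged from 0.193 to 4.89 RPKM in calcium-high (median 0.589) and from 0.0692 to 0.443 in the 6 (median 0.241), with 52.4 RPKM in replicate 3. Its top calcium-high values were those of replicates 5 and 6, at 4.89 and 2.04 RPKM. Cdca3, a trigger of the destruction of an inhibitor of mitotic entry, had 10.4 RPKM in replicate 3 and at most 1.33 RPKM in the other 13 libraries.

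Of the 7 genes of chromosome structure, 6 averaged 1 RPKM or more in the 13 libraries, the largest number of any role. Mki67 (chr7:135689784-135716361), which encodes the proliferation marker Ki-67, ranged from 0.473 to 4.54 RPKM in calcium-high (median 1.47) and from 0.911 to 5.27 in the 6 calcium-low libraries (median 1.75), with 69.0 RPKM in replicate 3. Top2a, which encodes the topoisomerase that untangles sister chromatids, ranged from 2.24 to 5.63 RPKM in calcium-high (median 3.07) and from 2.88 to 11.8 in the 6 (median 4.07), with 69.2 RPKM in replicate 3. For both genes the highest of the 13 was calcium-low replicate 1. Smc4 (chr3:69004738-69034623), a core subunit of condensin, ranged from 2.79 to 3.7 RPKM in calcium-high (median 3.09) and from 2.9 to 8.48 in the 6 (median 3.5), with 16.3 RPKM in replicate 3. Its partner Smc2 ranged from 1.69 to 2.37 RPKM in calcium-high (median 2.14) and from 1.88 to 4.97 in the 6 (median 2.28), with 12.8 RPKM in replicate 3. Both condensin cores had a narrow calcium-high range, and calcium-low replicate 1 was the top of the 6. Ncapd2 ranged from 4.16 to 11.9 RPKM in calcium-high (median 7.15) and from 6.0 to 11.5 in the 6 (median 8.64), with 45.04 RPKM in replicate 3. Hmgb2, a chromatin protein, ranged from 1.74 to 6.05 RPKM in calcium-high (median 3.75) and from 3.02 to 7.09 in the 6 (median 4.21), with 21.1 RPKM in replicate 3. Ncapg, another condensin subunit, had 10.1 RPKM in replicate 3.

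At the centromere, Cenpa (chr5:30666777-30674830), the histone variant that marks it, ranged from 1.98 to 7.4 RPKM in calcium-high (median 4.74) and from 2.92 to 7.68 in the 6 calcium-low libraries (median 6.4), with 21.1 RPKM in replicate 3. Replicates 1 and 2 were the lowest in both populations. Cenpe, a kinetochore motor, ranged from 0.116 to 0.54 RPKM in calcium-high (median 0.242) and from 0.124 to 0.51 in the 6 (median 0.201), with 6.56 RPKM in replicate 3. The kinetochore genes Nuf2, Cenpf and Ndc80 had 11.5, 7.94 and 7.52 RPKM in replicate 3. Kif11 (also known as Eg5), the kinesin that pushes spindle poles apart, ranged from 0.149 to 1.04 RPKM in calcium-high (median 0.27) and from 0.287 to 1.06 in the 6 (median 0.537), with 16.1 RPKM in replicate 3. It was lower in calcium-high in 6 of the 7 pairs, and in 5 of the 6 without pair 3. The other kinesin genes, Kif23, Kif20a, Kif2c and Kif4, had 14.2, 10.7, 7.68 and 6.76 RPKM in replicate 3.

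Of the spindle microtubule proteins, Tpx2, an activator of Aurora A, ranged from 0.433 to 1.62 RPKM in calcium-high (median 0.663) and from 0.425 to 1.74 in the 6 calcium-low libraries (median 0.57), with 18.4 RPKM in replicate 3. Dlgap5, which stabilises spindle fibres, ranged from 0.282 to 1.71 RPKM in calcium-high (median 0.585) and from 0.627 to 2.4 in the 6 (median 0.951), with 7.39 RPKM in replicate 3. Both had overlapping populations with calcium-low replicate 1 as the top of the 13. Prc1, Nusap1, Hmmr, Tacc3 and Ckap2 had 30.4, 17.0, 14.2, 11.96 and 7.57 RPKM in replicate 3. For cytokinesis, Ect2, the exchange factor that switches on RhoA at the cleavage furrow, ranged from 0.453 to 1.7 RPKM in calcium-high (median 0.624) and from 0.701 to 1.81 in the 6 (median 1.24), with 12.4 RPKM in replicate 3. It was lower in calcium-high in 6 of the 7 pairs, and in 5 of the 6 without pair 3. Its partner Racgap1 and the furrow scaffold gene Anln had 31.8 and 8.82 RPKM in replicate 3.

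The question of the study's design is whether the calcium-high and calcium-low populations differ. None of the 45 genes passed the test in any fit. In limma on log2(RPKM + 1) over the 9921 genes that averaged at least 1 RPKM, at a Benjamini-Hochberg adjusted p under 0.05, 0 genes (0.0%) were called, with 669 at an unadjusted p under 0.05. Of the 45 genes, 37 entered that fit, 0 were called and 0 had an unadjusted p under 0.05, and the smallest adjusted p was 0.748, for Dlgap5. All 37 had a lower mean log2 value in calcium-high, with a median log2 fold change of -0.53, beside 57.8% of all tested genes and a median of -0.03. This count carries no weight, because 19 of the 37 reached a mean of 1 RPKM only through calcium-low replicate 3, that is, through their high value in a calcium-low library. Without the filter on low values, all 45 of 45 were lower (50.7% of 18207 genes), at a median of -0.50. Leaving out calcium-low replicate 3 as well, 29 were lower and 16 higher (46.0% of all genes lower), at a median of -0.05. With the filter applied to those 13 libraries, 18 genes entered and 15 were lower (51.4% of all tested), at a median of -0.20, while 21 of 9864 genes (0.213%) were called and none of the 45 was among them (smallest adjusted p 0.849). With both libraries of replicate 3 left out, 15 of 19 were lower (47.7% of all tested), at a median of -0.23. The lean toward lower values in calcium-high thus became small or mixed once that library was set aside.

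**Figure D2:**
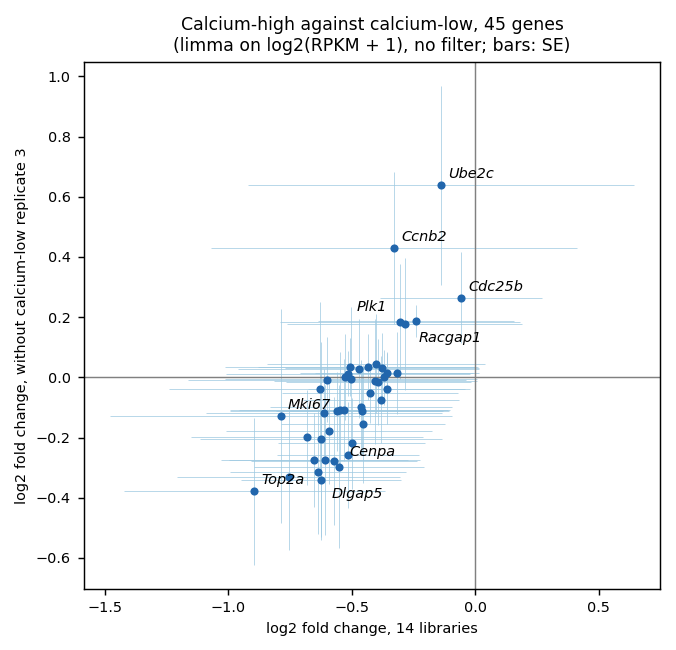
Log2 fold change of each of the 45 genes, calcium-high against calcium-low, over all 14 libraries (horizontal axis) and without calcium-low replicate 3 (vertical axis), from limma on log2(RPKM + 1) with no filter; bars are standard errors. All 45 points lie left of 0 over 14 libraries, and 16 of them lie above 0 without calcium-low replicate 3, Ube2c highest at 0.64.

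Single genes moved by different amounts when that library was left out. Top2a had a log2 fold change of -0.89 (SE 0.48) over 14 libraries and -0.38 (SE 0.24) over 13. Dlgap5 had -0.62 (SE 0.30) and -0.34 (SE 0.20), and Ncapd2 had -0.64 (SE 0.33) and -0.31 (SE 0.21). For Cenpa the values were -0.55 (SE 0.32) and -0.30 (SE 0.27), and for Mki67 -0.79 (SE 0.63) and -0.13 (SE 0.36). These genes kept their direction with wide errors. Ccnb2 went from -0.33 (SE 0.68) to 0.43 (SE 0.25) and Ube2c from -0.14 (SE 0.71) to 0.64 (SE 0.33), so both changed direction. All 7 genes of chromosome structure were lower in calcium-high over the 13 libraries, at a median log2 fold change of -0.26. So were the 3 of the passenger complex, at -0.21, beside 46.0% of all genes lower. The other 7 roles held genes in both directions. Calcium-low replicate 1 was the highest of the 13 for Mki67, Top2a, Hmgb2, Smc2, Smc4 and Ncapg, and calcium-high replicate 5 for Ncapd2. Chromosome structure had 5 genes lower and 1 higher in replicates 4 to 7, where 26.3% of all tested genes were lower. The lower ones ran from -0.11 (Smc2) to -0.0017 (Top2a), and Mki67 was higher at 0.27. In replicates 4 to 7 the 2 passenger complex genes that entered the fit were higher in calcium-high, Aurkb at 0.17 and Cdca8 at 0.055. Cenpf, singled out after its values were seen, was the only one of the 45 at an unadjusted p under 0.05 in the unfiltered fit of 13 libraries (log2 fold change 0.19, SE 0.05, limma adjusted p = 0.25), at levels of 0.14 to 0.399 RPKM in calcium-high and 0.0613 to 0.28 in the 6 calcium-low libraries.

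Compared by replicate number, the pairs did not move together. In pair 1, 43 of the 45 genes were lower in calcium-high, at a median difference of -0.52 on the log2(RPKM + 1) scale, where 66.9% of all genes above 0 were lower. Pair 2 had 38 lower (62.2% of all genes) at a median of -0.21, and pair 3 had 45 lower (70.0%) at a median of -2.93. Pair 4 had 26 lower (43.1%) at a median of -0.02, pair 6 had 23 (30.0%) and pair 7 had 24 (35.6%) at a median of -0.03. Pair 5 went the other way, with 40 genes higher and 5 lower (34.8% of all genes lower), at a median of 0.41. In pairs 1 to 3 the genes at large also leaned lower in calcium-high, and in pairs 4 to 7 they leaned higher. Under median-of-ratios scaling, which removes such a shift between libraries, 41, 34, 45, 27, 6, 26 and 27 of the 45 genes were lower in pairs 1 to 7. Of all tested genes, 47.1% (pair 3) to 51.7% (pair 5) were lower under this scaling. The genes lower in at least 6 of the 7 pairs numbered 10 of 45, and 10 of the 37 tested, beside 12.4% of all tested genes. They were Cdk1, Bub1, Smc2, Smc4, Ncapd2, Cenpa, Kif11, Kif23, Ect2 and Anln. Pair 3 was lower for all 45 through calcium-low replicate 3, so 1 of the 7 pairs was settled beforehand for these genes. Smc4 alone was lower in all 7. Without pair 3, the genes lower in at least 5 of 6 pairs numbered 10 of 45, and 5 of the 18 that averaged 1 RPKM in the 13 libraries, beside 14.5% of all tested genes. For none of the 45 genes did the calcium-high range lie wholly below the calcium-low range, either over 14 libraries (0.111% of all tested genes) or over 13 (0.304%).

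**Figure D3:**
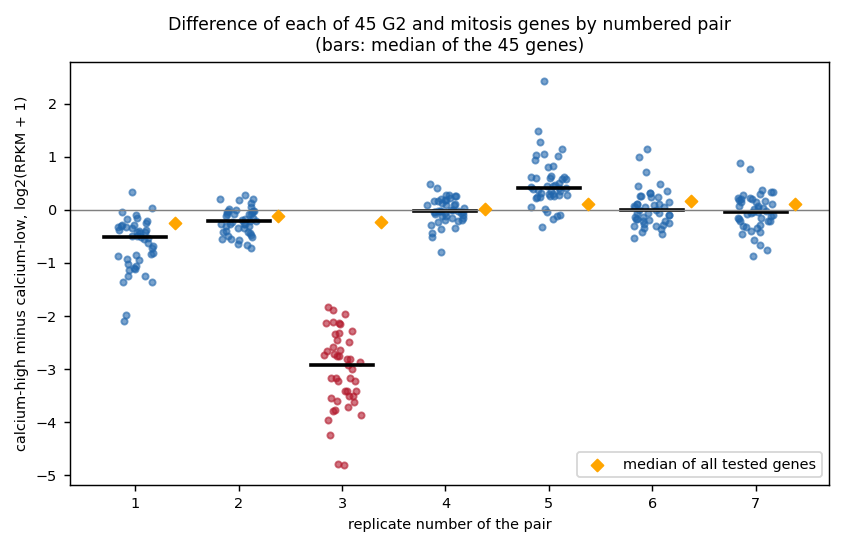
Difference between calcium-high and calcium-low for each of the 45 genes (points) in each numbered pair, on the log2(RPKM + 1) scale; black bars are the medians of the 45 genes and orange diamonds the medians of all tested genes. The median of the 45 genes is -2.93 in pair 3, -0.52 in pair 1, 0.41 in pair 5 and near 0 in pairs 4, 6 and 7.

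When replicate numbers were fitted as a block, limma called 91 of 9921 genes (0.917%), none of them among the 45. Of the 37 genes tested, 6 had an unadjusted p under 0.05, all with lower values in calcium-high (13.9% of all tested genes had such a p in either direction). Of the 37, 19 entered only through their high value in calcium-low replicate 3, Ect2 among them, so the direction of those 19 carries no weight. The smallest adjusted p values were those of Cenpa (log2 fold change -0.55, block SE 0.18, adjusted p = 0.195), Smc4 (-0.51, SE 0.20, adjusted p = 0.28), Hmgb2 (-0.57, SE 0.24, adjusted p = 0.31), Smc2 (-0.50, SE 0.22, adjusted p = 0.34) and Ect2 (-0.65, SE 0.29, adjusted p = 0.35). These rest in part on calcium-low replicate 3, without which Cenpa stood at -0.30, Smc4 at -0.26, Hmgb2 at -0.28, Smc2 at -0.22 and Ect2 at -0.28. The block without both libraries of replicate 3 called 313 of 9879 genes and none of the 45 (smallest adjusted p 0.168). There, 2 of the 19 genes tested had an unadjusted p under 0.05, Cenpa with a lower value in calcium-high (-0.34) and Cdc25b with a higher one (0.32).

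The library sets were also fitted apart. In replicates 4 to 7 alone, which hold the deeper libraries, 21 of the 45 genes were tested. Of these, 10 were lower and 11 higher in calcium-high (26.3% of all tested genes lower). There, 831 of 9751 genes were called, with 0 of the 21 among them. Racgap1 came closest, at 0.59 higher in calcium-high (limma adjusted p = 0.059). In replicates 1 to 3 alone, 45 of 45 were lower at a median log2 fold change of -1.28 (83.3% of all tested genes lower). All 45 passed the filter in these 6 libraries, against 37 over 14, and calcium-low replicate 3 is 1 of the 6. That count and median therefore carry no weight. The difference between the sets itself, tested as an interaction in limma, was called for 0 of 9921 genes (0.0%; 2841 at an unadjusted p under 0.05) and for 0 of 37 of these genes (17 at an unadjusted p under 0.05, smallest adjusted p 0.12), of which 19 entered only through calcium-low replicate 3. The number at an unadjusted p under 0.05 was 5 of 36 with median-of-ratios scaling (726 of all 9908 genes) and 6 of 36 with upper-quartile scaling (724 of 9910). It was 22 of 37 with a pseudocount of 0.1 (2823 of 9921) and 7 of 37 with a pseudocount of 5 (2827 of 9921). Without the filter it was 7 of 45 (3358 of 18207), and with genes above 1 RPKM in at least 7 libraries 11 of 18 (2818 of 9795). Without both libraries of replicate 3 it was 5 of 19 (2633 of 9879). The smallest limma adjusted p of these genes ranged from 0.116 to 0.642 over these alternatives. The sets differ in depth as well as in replicate number, and these cannot be told apart. limma-voom on the whole reads recovered from the RPKM steps, with a weight for each library, called 756 genes (7.62%) and none of the 45, of which 24 were lower and 13 higher (35.1% of all tested genes lower; smallest adjusted p 0.17, for Cdc25b).

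Calcium-low replicate 3 was next set against the median of the other 6 calcium-low libraries, as a ratio on the RPKM + 1 scale, which is 1 library with no replicate check and no test. Of the 45 genes, 43 were at 4-fold or more, beside 0.994% of all 18207 genes above 0. At 8-fold or more there were 20, where the share of all genes was not counted and can be no larger than at 4-fold. The median ratio of the 45 genes was 7.34, and that of all genes 1.01. On this scale Ube2c had the highest ratio at 43.1, followed by Ccnb2 at 40.2, Mki67 at 25.5, Ccna2 at 18.04 and Ccnb1 at 17.3. The lowest were Cenpa at 2.98 and Smc4 at 3.83, just under 4-fold, with Smc2 at 4.19 and Hmgb2 at 4.24 just above it. The order depends on the pseudocount: as plain RPKM ratios, the highest were Ccnb2 at 299.5, Ube2c at 217, Hmmr at 84.1, Cenpf at 75.6 and Cdc25c at 70.4, while Cenpa at 3.29 and Smc4 at 4.64 were again the lowest. By role, the median ratio was 12.3 for the spindle microtubule proteins and 11.8 for the cyclins, Cdk1 and its regulators, 9.34 for the kinases and checkpoint, 8.65 for the ubiquitin ligase partners, 7.87 for the kinesins, 7.25 for the passenger complex, 6.29 for the centromere and kinetochore, 6.0 for cytokinesis and 4.77 for chromosome structure. As plain ratios the medians were 36.9 for the cyclins, Cdk1 and its regulators, 32.7 for the ubiquitin ligase partners, 31.6 for the centromere and kinetochore, 30.04 for the kinesins, 21.9 for the spindle microtubule proteins, 14.9 for the kinases and checkpoint, 11.6 for the passenger complex, 10.1 for cytokinesis and 5.59 for chromosome structure. Chromosome structure was the lowest on both scales, and most other places in the order differed. It was also the role with the most genes at a mean of 1 RPKM or more in the other 13 libraries (6 of 7). Genes whose promoter window held TTTGAA had ratios of 2.98 to 43.1 (median 7.34, 29 genes), and the 9 matched genes without it had ratios of 4.53 to 17.3 (median 9.16), so that the ranges overlapped.

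The other lists of cell cycle genes had different ratios in that library. Of 60 other G2 and mitosis genes, 34 were at 4-fold or more, at a median ratio of 4.42. Of 36 replication-dependent histone genes, which supply histones during DNA synthesis, 20 were at 4-fold or more, at a median ratio of 4.65. Of 40 S phase genes, which license and copy DNA, 2 were at 4-fold or more, at a median ratio of 1.53. Of 22 regulators, 1 was at 4-fold or more, namely Foxm1, the transcription factor gene, at a ratio of 6.38. Without calcium-low replicate 3, 41 of the 60 other G2 and mitosis genes were lower in calcium-high (median log2 fold change -0.07), 20 of 35 histone genes (-0.04) and 38 of 40 S phase genes (-0.28), beside 46.0% of all genes. In the fit with the replicate block, 0 genes of these 4 lists were called in either direction; the smallest adjusted p values among the S phase genes were those of Dtl at 0.059, Mcm7 at 0.086 and Uhrf1 at 0.105, and among the other G2 and mitosis genes that of Lmnb1 at 0.196.

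**Figure D4:**
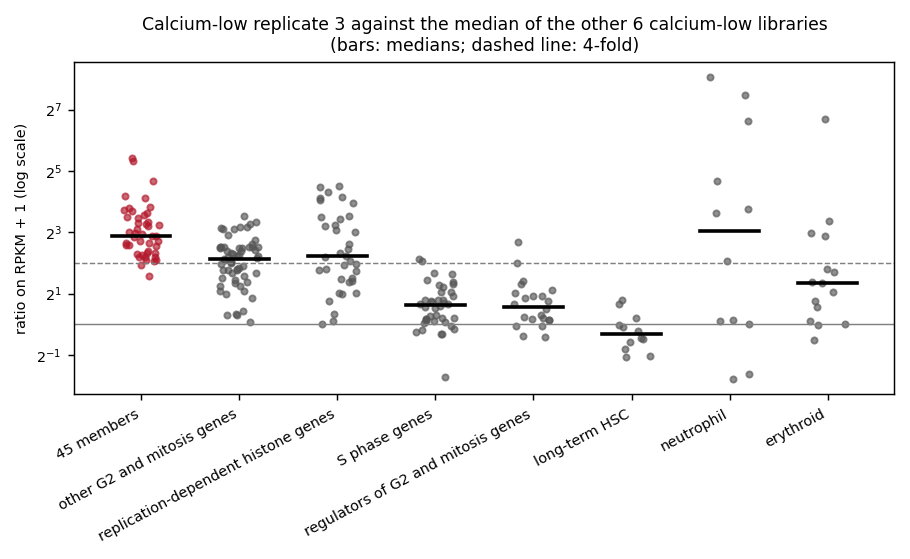
Ratio of calcium-low replicate 3 to the median of the other 6 calcium-low libraries, on the RPKM + 1 scale with a log axis, for each gene (points) of the 45 genes, the 4 other cell cycle lists and 3 marker lists; black bars are medians and the dashed line marks 4-fold. The 45 genes have a median of 7.34 with 43 above the line, and the S phase genes a median of 1.53 with 2 above it.

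Some neutrophil and erythroid markers were also high in that library. The 12 long-term HSC markers summed to 214 RPKM there, against 256 to 317 in the remaining 6 calcium-low libraries and 218 to 415 in calcium-high; calcium-high replicate 3 was the other low library, at 218. The 12 neutrophil markers summed to 771 RPKM, against 14.4 to 44.4 in the other calcium-low and 9.8 to 97.8 in the calcium-high libraries, and 7 of the 12 were at 4-fold or more. S100a8 and S100a9, abundant in neutrophils, had 392 and 223 RPKM, and Ngp, a granule protein gene, had 98.4 RPKM, while Mmp8, a late granule gene, was listed at 0 and Retnlg had 0.071 RPKM. The 15 erythroid markers summed to 401 RPKM, against 140 to 181 in the other calcium-low and 123 to 252 in the calcium-high libraries, and 4 of the 15 (Car1, Ermap, Klf1 and Aqp1) were at 4-fold or more, with Slc4a1, a late erythroid membrane gene, at 0. The markers of B cells, T and NK cells, monocytes, megakaryocytes, mast cells and endothelium held no gene at 4-fold or more. The megakaryocyte sum was 42.5 RPKM, above the 21.3 to 32.9 of the other calcium-low libraries and within the 29.6 to 58.02 of the calcium-high ones. The sums of B cell (3.59 RPKM), T and NK cell (11.7) and monocyte markers (0.579) were below the lowest of the other calcium-low libraries (4.52, 12.97 and 1.11), and those of mast cells (0.968) and endothelium (7.13) were within their ranges. Of the lymphoid markers, Ms4a1, Cd3e, Cd3g, Trbc1 and Ncr1 were at 0 in all 14 libraries. The part of other cells in the levels of the 45 genes in that library was not tested.

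**Figure D5:**
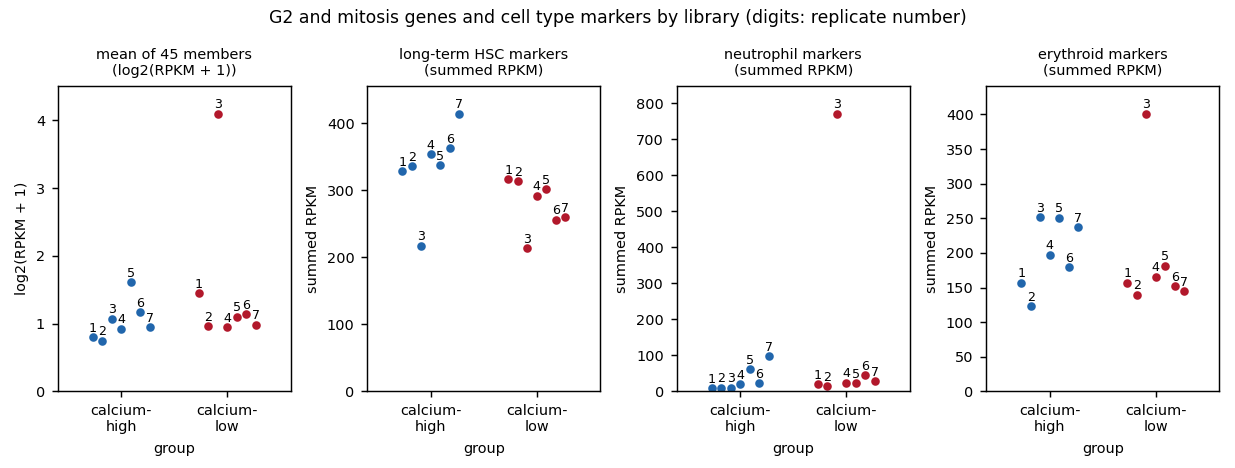
Mean of the 45 genes on the log2(RPKM + 1) scale, and summed RPKM of the long-term HSC, neutrophil and erythroid markers, in each library (points, labelled by replicate number). Calcium-low replicate 3 is the highest of 14 for the 45 genes at 4.10, for the neutrophil markers at 771 and for the erythroid markers at 401, and the lowest for the HSC markers at 214.

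In all, 181 genes were at 4-fold or more in calcium-low replicate 3. The 45 genes supplied 43 of them (23.8%), the other G2 and mitosis genes 34, the histone genes 20, the neutrophil markers 7, the erythroid markers 4, the S phase genes 2 and the regulators 1. The remaining 70 (38.7%) were in none of the lists.

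Among the other 13 libraries, the highest values were shared by 2 libraries of opposite populations. These 2 also had the highest RPKM summed over all genes, 113735 in calcium-high replicate 5 and 114884 in calcium-low replicate 1. The rest of the 13 had 81166 to 101936. The part of these totals in the values was not tested. Calcium-high replicate 5 was the highest of the 13 for 24 of the 45 genes (15.6% of all genes), among them Ube2c at 4.89 RPKM, Aurkb at 4.66, Cdk1 at 5.27 and Racgap1 at 6.41. Calcium-low replicate 1 was the highest for 17 (23.8% of all genes), among them Top2a at 11.8 RPKM, Smc4 at 8.48 and Hmgb2 at 7.09. The other 4 genes were Ccnb1, Cks2, Cdc25b and Cenpa, with their highest values in calcium-high replicates 2, 3 and 7 and calcium-low replicate 4. In calcium-high replicate 5 the neutrophil markers summed to 62.2 RPKM, the erythroid markers to 251 and the HSC markers to 337. The monocyte, macrophage and dendritic markers summed to 16.7 RPKM there, the highest of the 14 libraries. Of the 13 libraries, calcium-high replicate 7 had the highest neutrophil sum (97.8 RPKM) and calcium-high replicate 3 the highest erythroid sum (252). The 45 genes had means of 0.95 and 1.07 in those 2 on the log2(RPKM + 1) scale, against 1.61 in calcium-high replicate 5. In calcium-low replicate 1 the sums were 19.6 (neutrophil), 157 (erythroid) and 1.5 RPKM (monocyte). The part of other cells in the values of calcium-high replicate 5 and calcium-low replicate 1 was not tested.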

How the data were processed

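The deposited tables hold RPKM per gene label, computed by the authors, 1 table per library; the unit was read from the values. The submitters' processing notes name edgeR, GRCm38 and mm10 without a role; the aligner and counting method are not given in the sources used here. Of 48737 labels per table, 23 were left out because they appear as serial numbers in 8 of the 14 tables. RPKM steps gave whole reads (within 0.02 reads) for all 18207 genes above 0 in any library, which gave the depths.

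The main test was limma 3.58.1 under R 4.3.3, applied to log2(RPKM + 1) with its trend option (prior variance depending on the mean) over genes averaging at least 1 RPKM in the libraries fitted, with Benjamini-Hochberg adjustment; the fold change on this scale understates that of low genes. The script was run on simulated data with the same dispersion for every gene. These held no outlying library and no shift between library sets. That run therefore does not show how the fit behaves with calcium-low replicate 3. Alternatives were other scalings, pseudocounts of 0.1 and 5, filters, limma-voom on recovered reads, library sets, leaving out each library, and the replicate number as a block. The replicate numbers were taken to pair the libraries because deviations from the group means correlated in all 7 pairs (0.384 to 0.715), although the labels state no pairing and only 5 of the 14 libraries correlated best with their own number.

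The 45 genes, the other lists and the markers were chosen with earlier results of these data known. Values by population are given for 16 chosen genes with all 9 roles among them, for the 5 genes with the smallest p with the block, the 5 highest and 3 lowest ratios in calcium-low replicate 3 and the 3 highest levels elsewhere (22 genes in all). Gene coordinates are from GENCODE M21 (GRCm38), promoters from RefSeq (GRCm38.p6). Python 3.11.15, numpy 2.4.6, pandas 2.3.3, scipy 1.17.1 and matplotlib 3.10.9 were used. Wilson intervals cover counting error only, since the reads carry no molecular identifiers named in the labels.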

Additional observations from a re-analysis of the deposited data

Results flagged for a closer look

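For 41 of the 45 genes, calcium-low replicate 3 lay farther from its nearest neighbour than Dixon's 95% critical value. The distance was taken relative to the range of the 7 calcium-low libraries, on the log2(RPKM + 1) scale. The 4 genes for which it did not were Smc2, Smc4, Cenpa and Dlgap5. Among all tested genes, 9.49% had some calcium-low library past that value, whichever it was. Calcium-low replicate 3 was already set apart and the 45 genes share it, so the count is a description and not a test. The RPKM values in that library for the cyclins, Cdk1 and its regulators were Ccna2 at 33.3, Ccnb1 at 28.9, Ccnb2 at 45.3, Cdk1 at 17.3, Cks2 at 60.7, Cdc25b at 11.1 and Cdc25c at 5.74. Those of the mitotic kinases and spindle checkpoint were Plk1 at 14.5, Aurka at 11.7, Bub1 at 11.5, Bub1b at 29.96 and Ttk at 6.12. For the chromosomal passenger complex they were Aurkb at 17.1, Birc5 at 7.1 and Cdca8 at 20.5. Those of the ubiquitin ligase partners were Cdc20 at 28.3, Ube2c at 52.4 and Cdca3 at 10.4. For chromosome structure they were Mki67 at 69.0, Top2a at 69.2, Hmgb2 at 21.1, Ncapd2 at 45.04 and Ncapg at 10.1. Those of the centromere and kinetochore were Cenpe at 6.56, Cenpf at 7.94, Nuf2 at 11.5 and Ndc80 at 7.52. For the kinesins they were Kif11 at 16.1, Kif23 at 14.2, Kif20a at 10.7, Kif2c at 7.68 and Kif4 at 6.76. Those of the spindle microtubule proteins were Tpx2 at 18.4, Nusap1 at 17.0, Hmmr at 14.2, Prc1 at 30.4, Tacc3 at 11.96 and Ckap2 at 7.57. For cytokinesis they were Ect2 at 12.4, Anln at 8.82 and Racgap1 at 31.8. 

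In the calcium-high group, replicate 5 stood above the other 6 libraries by the same measure for 5 of the 45 genes, with RPKM values of Plk1 at 2.23, Aurka at 2.82, Bub1b at 3.09, Kif4 at 0.65 and Tpx2 at 1.62; 5.90% of all tested genes had such a library in calcium-high.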

How the results depend on the processing

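None of the 45 genes was called under any alternative (0 to 0 when each library was left out in turn). Over all genes, 0 of 9921 were called in the main test, 4 of 9908 with median-of-ratios scaling and 6 of 9910 with upper-quartile scaling. Without the filter 1 of 18207 was called, and with the filter of 1 RPKM in 7 libraries 3 of 9795. The calls were 756 of 9921 with limma-voom, 51 of 9921 with the library set as a term and 831 of 9751 in replicates 4 to 7 alone. Leaving out both libraries of replicate 3 gave 122 of 9879, and leaving out 1 library at a time gave 0 to 101. Those were 101 of 9953 without calcium-high replicate 3 and 21 of 9864 without calcium-low replicate 3. Without calcium-low replicates 2 and 1 they were 5 of 9923 and 2 of 9879. Alternatives chosen after seeing the data gave 1 of 18088 (no filter, 13 libraries), 841 of 9864 (limma-voom, 13 libraries) and 288 of 9908 (block with median-of-ratios scaling). The replicate block called 91 of 9921 genes, and 313 of 9879 without both libraries of replicate 3, and changed no call among the 45. Genes of the list lower in calcium-high, 37 of 37 tested, became 18 of 18 with the stricter filter, 24 of 37 with limma-voom, 10 of 21 in replicates 4 to 7, and 15 without both libraries of replicate 3 (of 19, with or without the block) or with limma-voom on 13 libraries (of 18); with 1 library left out they numbered 15 to 38, and 15 without calcium-low replicate 3. Their median log2 fold change turned to 0.033 in replicates 4 to 7, and ranged from -0.62 to -0.20 with 1 library left out, -0.20 being without calcium-low replicate 3. Genes lower in at least 6 of 7 pairs, 10 of 45, became 5 of the 18 that passed the stricter filter. With 1 pair left out they numbered 10 to 23 (17 without pair 4, 23 without pair 5), where at least 5 of 6 was the requirement. Genes at 4-fold or more in calcium-low replicate 3, 43 of 45, became 16 of the 18 that passed the stricter filter. They became 13 of 45 with a pseudocount of 5 and 20 of 45 at 8-fold. No share of all genes is given for these last settings. Among the 22 genes whose values by population are given, fold changes turned positive in replicates 4 to 7 for Ccna2 (0.18), Cdk1 (0.033), Aurkb (0.17), Mki67 (0.27) and Ube2c (0.92), with limma-voom for Ccnb2 (1.503), Plk1 (0.61), Tpx2 (0.39) and Ube2c (1.58), on 13 libraries without the filter for Ccnb2 (0.43), Plk1 (0.19), Tpx2 (0.029) and Ube2c (0.64), on 13 libraries with limma-voom for Mki67 (0.031), and with a pseudocount of 0.1 for Ube2c (0.32). The cause was not tested. What difference could be detected at a few reads per library was not measured.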
